A study of Mus musculus with 8 samples.

Results

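Cycling neutrophil precursors of mouse periosteum, the cell layer that covers bone, were described in mice fed a normal chow diet (ND) or a high-fat diet (HFD). They were selected on measured RNA and numbered 191 of 12253 cells kept, 91 of 6029 in ND and 100 of 6224 in HFD. A cell was counted as one when Chil3, Fcnb, Camp and Ngp together made up at least 1% of its unique molecular identifiers (UMIs, the counted RNA molecules), Mki67 and Top2a together had at least 3 UMIs, Elane and Prtn3 together had fewer than 10, and Cd79a and Ccr2 had none. Only cells with over 500 but under 8000 genes found, and with mitochondrial UMIs below 20%, were kept. The animals were C57BL/6J males, 16 weeks old, 4 in each diet, with no other allele or agent named in the labels. Cells were released enzymatically from the periosteum of the left femurs and tibias, without a sort. Each diet was 1 pooled droplet-based library, with 48558889 UMIs in ND and 49940976 in HFD. No barcode was tied to a mouse, so that no test between diets was possible, and none was run between classes, since measured RNA chose them. Intervals given are exact Poisson intervals of counts or Clopper-Pearson intervals of shares (95%), and they cover counting error only.

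Neutrophils arise from granulocyte-monocyte progenitors in bone marrow. Granule proteins are made in waves: myeloperoxidase, elastase and proteinase 3 enter primary (azurophil) granules at the promyelocyte stage, lactoferrin, lipocalin-2, cathelicidin and neutrophilic granule protein enter specific granules at the myelocyte stage, and gelatinase granules follow at the metamyelocyte and band stages. Division is known to end at the myelocyte stage, and C/EBP-epsilon (Cebpe) is the transcription factor required for specific granules. The cells described here stand at the point where the specific granule genes are on and division has not yet stopped.

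The precursors made up 1.51% of kept cells in ND (1.22 to 1.85) and 1.61% in HFD (1.31 to 1.95). As a share of neutrophil-lineage cells they were 4.17% of 2183 in ND (3.37 to 5.09) and 4.58% of 2185 in HFD (3.74 to 5.54). The intervals of the diets overlapped on both denominators. The lineage was completed by 4 neighbouring classes, set by fixed limits on the same genes and therefore ranges, not types. Progenitors (Elane and Prtn3 of 10 or more with at least 3 UMIs of Mki67 and Top2a) numbered 95 in ND and 71 in HFD. Cells with the granule share of the precursors but 1 or 2 UMIs of Mki67 and Top2a numbered 40 and 48, and those with none, called non-cycling immature neutrophils below, 532 and 709. Mature neutrophils (granule share under 1%, S100a8 and S100a9 at 5% of UMIs or more) numbered 1425 and 1257. The progenitors were mixed: their granule share had a median of 2.78% in ND and 3.83% in HFD but a lower quartile of 0.0156% and 0.0234%. Of the progenitors, 53 of 95 in ND and 39 of 71 in HFD met every limit of the precursors except that on Elane and Prtn3.

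The precursors were deep, with a median of 27702 UMIs per cell in ND and 26187.5 in HFD, against 9558.5 and 9364 in non-cycling immature neutrophils. The lowest cell had 4908 UMIs in ND and 1329 in HFD, and the highest 51173 and 52481. In HFD 4 precursors lay under 3000 UMIs, with a median of 1718, and none in ND. In these 4 cells S100a8 and S100a9 took a median of 4.40% of UMIs, against 31.3% in all HFD precursors. Their granule share had a median of 7.67%. The libraries shared 15 barcodes, and none of them was a precursor in both. The values that chose the cells were far from their limits in most of them. The granule share had a median of 13.9% in ND (8.15 to 20.9) and 14.0% in HFD (4.07 to 18.6), and 2 HFD cells lay between 1 and 5%. Just outside that limit, at 0.2 to 1% and otherwise as the precursors, there were 2 cells in each library. Mki67 and Top2a together had a median of 23 UMIs in ND (3 to 54) and 25 in HFD (3 to 84). At exactly 3 UMIs there were 1 and 3 cells, and just outside, at 2 UMIs, 7 and 12. Elane and Prtn3 had no UMI in 50 of the 91 ND cells and 58 of the 100 HFD cells and 5 to 9 UMIs in 9 and 8. Another 9 and 8 cells had 10 to 50 and were otherwise as the precursors. Cd79a kept out 14 and 9 cells, and Ccr2 1 and 2.

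Genes outside the rule were compared with the label. Ltf (lactoferrin) was found in every precursor, at 9308 UMIs per 1000000 (UPM, the unit of all levels below) in ND and 9607 in HFD, and Lcn2 (lipocalin-2), likewise found in every one, at 16127 and 14930. Ltf and Lcn2 together took a median of 2.48% of a cell's UMIs in ND (1.57 to 3.95) and 2.45% in HFD (0.996 to 4.17), so that the libraries covered nearly the same range. Cebpe had 387 and 375 UPM and was found in 98.9% of the ND and 94% of the HFD precursors. To set such shares beside free RNA, each cell was thinned to 3000 UMIs and shallower cells were left out, 0 and 4 of the precursors and 255 and 265 of a reference of B cells (at least 2 UMIs of Cd79a, no Mki67 or Top2a). Cebpe was then found in 68.1% of ND and 70.8% of HFD precursors, against 0.858% and 0.816% of the B cell reference. Ly6g, a surface protein of neutrophils, stood at 36.3% and 33.3% against 1.89% and 1.99%, and at 89.0% and 75% of the precursors before thinning. Birc5 (survivin, a mitotic protein) stood at 54.9% and 43.8% against 1.20% and 2.09% after thinning, and at 92.3% and 84% before it.

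Mpo (myeloperoxidase, an enzyme of primary granules) was found in 13.2% of ND and 10% of HFD precursors. After thinning it was found in 2.20% and 0%, under the 5.66% and 4.62% of the B cell reference. Those shares are read as background. Elane and Prtn3 were capped by the rule, so that their low level was fixed by the choice of cells and says nothing of the label. Elane was found in 4.40% and 8.33% after thinning, against 7.12% and 8.16% of the reference, and in 28.6% and 29% before it. Prtn3 was found in 4.40% and 8.33%, against 7.03% and 5.71%, and in 29.7% and 29% before thinning, so that the HFD share lay above the reference. The median depth before thinning was 3826 UMIs in the ND reference and 3752.5 in the HFD reference, and the reference held some doublets, since its highest cell had 1145 UMIs of Elane and Prtn3 in ND. For the class as a whole the label, a dividing cell with specific granule genes, fitted the genes measured.

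The precursors spent much of their RNA on few genes. S100a9 took 16.3% of all UMIs in ND and 15.9% in HFD, and S100a8 15.7% and 16.0%. The pair encodes calprotectin, the main cytosolic protein of neutrophils. Camp (cathelicidin) took 6.78% and 6.74% and Ngp (neutrophilic granule protein) 6.50% and 6.45%. Lcn2 followed with 1.61% and 1.49%, then Actb and Tmsb4x, and Ltf with 0.931% and 0.961%. Lyz2 (lysozyme) took 0.813% and 0.814%, and Chil3 (a chitinase-like lectin) 0.792% and 0.696%. Among the 15 genes with the most UMIs, ribosomal and mitochondrial genes apart, 2 were chromatin proteins: Hmgb2, with 0.462% and 0.482%, and the histone variant H2afz, with 0.382% and 0.377%. UMIs count the 3-prime ends of transcripts and are not scaled to length, so levels are compared within a gene in what follows.

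Set beside the progenitors, precursors had the later granule genes high and the primary granule genes low. The contrast shares genes with the rule, and everything in it is a description without a test. Genes were counted where both classes together had at least 200 UMIs, here and for the next contrast, so that a gene could enter through the class where it was high and the counts per list support nothing. Of 4489 genes, 166 (3.7%) were at least 2-fold higher in the precursors in both libraries and 1018 (22.7%) at least 2-fold lower, and the median gene was lower by 0.41 on the log2 scale in ND and 0.35 in HFD. With that median subtracted the counts were 363 higher and 638 lower. Of the specific granule genes tested, the rule genes left out, 7 of 10 were higher and none lower, and of the gelatinase granule and secretory vesicle genes 7 of 12 were higher and none lower. Of the primary granule genes, 7 of 8 were lower and none higher. Mpo stood at 3162 UPM in ND and 4115 in HFD progenitors, and at 5.14 and 4.24 in the precursors, the level read above as background. Ctsg (cathepsin G) stood at 1287 and 1848 in progenitors against 9.09 and 4.63 in precursors. Ms4a3, a membrane protein of granulocyte-monocyte progenitors, differed less, with 984 and 1149 against 133 and 145, and was at 9.62 and 9.37 in non-cycling immature neutrophils. Ltf was 9.08-fold and 8.30-fold higher in precursors than in progenitors, Lcn2 5.39-fold and 4.69-fold, and Cd177, a surface protein that presents proteinase 3, 5.53-fold and 4.34-fold.

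Growth genes were low. All 20 ribosome biogenesis genes tested were at least 2-fold lower than in progenitors, where 22.7% of all genes were and the median gene was lower by 0.41 and 0.35 (log2), as were 82 of 84 ribosomal protein genes and 21 of 25 genes of protein translocation and folding in the endoplasmic reticulum. None of the 3 lists had a gene at least 2-fold higher. Ribosomal protein genes together held 217450 UPM in ND and 216985 in HFD progenitors, 44807 and 48610 in the precursors, and 31038 and 30149 in non-cycling immature neutrophils. Npm1 (nucleophosmin, a nucleolar protein) stood at 946 and 903 in progenitors and 118 and 122 in precursors, and Srm (spermidine synthase) at 122 and 129 against 1.19 and 0.772. Phgdh, the entry enzyme of serine synthesis, stood at 111 and 103 in progenitors and had 1 UMI in all ND precursors and none in HFD. The summed level of the ribosomal protein genes in the precursors was nearer to that of the non-cycling immature neutrophils than to that of the progenitors in both libraries.

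Among the genes with the highest ratios over progenitors were St3gal5 (a ganglioside synthase) at 149 and 156 UPM against 4.73 and 3.23, Plbd1 (a granule phospholipase-like protein) at 270 and 240 against 10.4 and 13.3, Ly6g at 203 and 204 against 9.47 and 14.6, and Ifitm6 at 935 and 901 against 82.2 and 89.4. The formyl peptide receptor gene Fpr2, which senses bacterial peptides, stood at 52.2 and 45.5 against 3.55 and 4.45. The hemoglobin genes Hba-a1, Hba-a2 and Hbb-bs were also among the 10 highest, and most of their UMIs came from 1 barcode in each library that also carried an erythroid signature (818 erythroid UMIs in ND, 4297 in HFD).

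Toward the non-cycling immature neutrophils, the precursors differed in the cell cycle and in the last granule genes. Of 4733 genes, 738 (15.6%) were at least 2-fold higher in the precursors in both libraries and 532 (11.2%) at least 2-fold lower, again without a test since Mki67 and Top2a chose the cells. Of the 10 specific granule genes tested, the rule genes left out, none passed 2-fold in either direction: the ratio of precursors to immature neutrophils was 0.987 in ND and 0.963 in HFD for Ltf, 0.953 and 0.936 for Lcn2, and 0.983 and 1.02 for Cd177. Of 13 gelatinase granule and secretory vesicle genes 10 were lower, as were 19 of 24 genes of mature neutrophils and 9 of 20 receptor and adhesion genes, with none higher in these lists. Mmp8 (neutrophil collagenase) stood at 33.6 and 31.6 UPM in precursors and 2196 and 2044 in immature neutrophils, 65.0-fold and 64.2-fold apart. Mmp9 (gelatinase B) stood at 75.5 and 46.7 against 1066 and 1008, and Retnlg, a resistin-like secreted protein, at 521 and 895 against 23272 and 23760. The chemokine receptor gene Cxcr2, which draws neutrophils out of marrow, stood at 12.3 and 9.26 against 138 and 94.7, and was at 417 and 388 in mature neutrophils. The 4 granule genes of the rule were higher in the precursors, with Fcnb (ficolin) at 801 and 924 against 106 and 119, Chil3 at 7924 and 6958 against 2134 and 2051, Camp at 67840 and 67386 against 35079 and 39015, and Ngp at 65005 and 64544 against 48744 and 50477. Together they took a median of 6.75% and 7.60% of the UMIs of an immature neutrophil, under that of the precursors given above. The whole specific granule list held 184170 and 181818 UPM in precursors and 133635 and 138133 in immature neutrophils. That sum includes the 4 rule genes, so that its higher level in precursors was in part fixed by the choice of cells. The 10 genes outside the rule had a median log2 ratio of precursors over immature neutrophils of -0.30 in ND and -0.19 in HFD.

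Transcription factors of the lineage differed in level between the classes. Cebpe was at 312 and 331 UPM in progenitors, 387 and 375 in precursors, 160 and 136 in non-cycling immature and 16.4 and 14.6 in mature neutrophils. It was the 1 factor gene of 18 tested that was at least 2-fold higher than in immature neutrophils, against 15.6% of all genes. Cebpb, the factor of the later stages, ran from 416 and 467 over 614 and 604 to 1132 and 1313 and then 4490 and 5305. Myb and Myc were among 4 factor genes of 17 lower than in progenitors, a share near the 22.7% of all genes, with Myb at 155 and 189 in progenitors and 36.4 and 26.6 in precursors. Mxd1, which competes with Myc for its partner Max, was the 1 factor gene of 17 at least 2-fold higher than in progenitors, a share near the 3.7% of all genes, at 259 and 216 against 84.9 and 86.9, and stood at 877 and 868 in immature neutrophils.

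**Figure D1:**
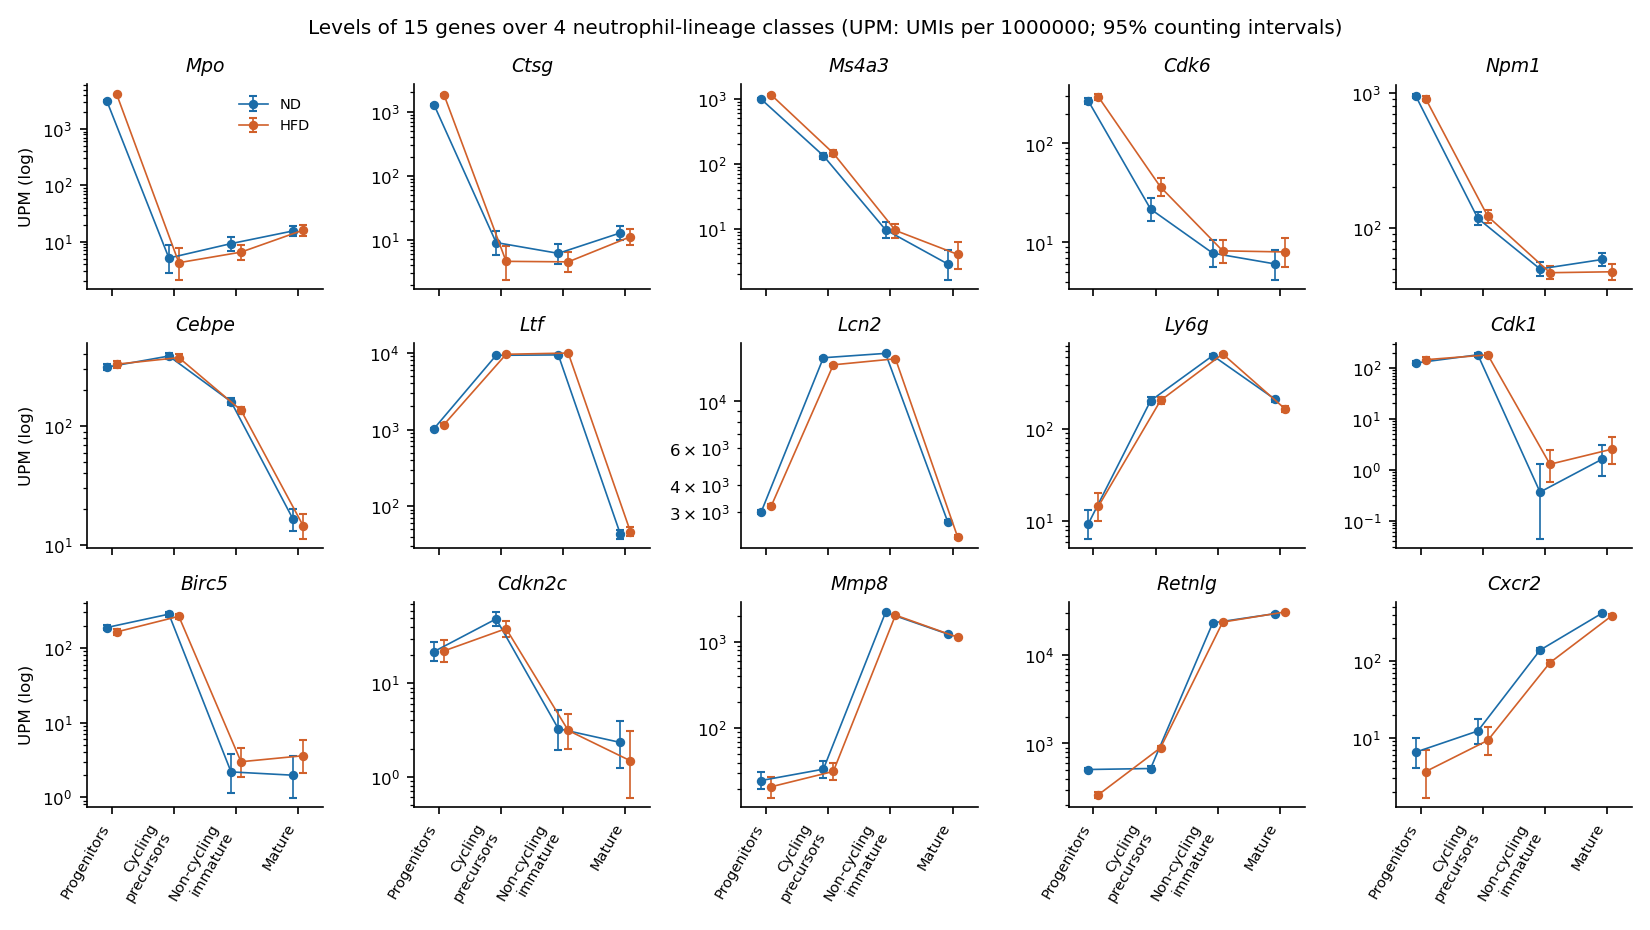
Levels of 15 genes in UPM (log axis) in progenitors, cycling precursors, non-cycling immature and mature neutrophils, with ND in blue, HFD in orange and bars for 95% counting intervals of the summed UMIs. Mpo and Ctsg are low from the precursors on, Ltf and Lcn2 are about as high there as in non-cycling immature neutrophils, and Mmp8 and Retnlg are highest in the non-cycling classes.

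The cell cycle genes spread over replication, histones and mitosis. Their summed levels, over all listed genes, were higher than in immature neutrophils. G2M genes (Mki67 and Top2a left out) held 10712 and 10554 UPM in precursors and 1976 and 1751 in immature neutrophils, S phase genes 2238 and 2927 against 196 and 200.2, kinetochore and spindle genes 5009.8 and 5054 against 199 and 173, and replication-dependent histone genes 10086 and 8942 against 357 and 209. The cells were chosen on Mki67 and Top2a, so these levels are a description. Rrm2, the regulated subunit of ribonucleotide reductase, stood at 319 and 371 UPM against 1.27 and 1.42. Nusap1, a spindle protein, stood at 196 and 200 against 0.544 and 0.568. Cdk1, the mitotic kinase, stood at 181 and 180, and in the cells with only 1 or 2 UMIs of Mki67 and Top2a at 0 and 6.39. Those cells therefore differed from the precursors in other cycle genes too. The progenitors also divide, and few cycle genes set the precursors apart from them: 4 of 43 G2M genes (Cenpf, Kif23, G2e3 and Kif11) were at least 2-fold higher in precursors and none lower, whereas 4 of 39 S phase genes (Mcm6, Rfc2, Mcm2 and Gins2) were lower and none higher. Both shares are to be read against the 3.7% and 22.7% of all genes.

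Regulators of entry into the cycle and of its exit were read next. Cdk6, Cdk4 and Ccnd2, which drive passage through G1, were the 3 of 12 cyclin and CDK genes at least 2-fold lower than in progenitors, a share near the 22.7% of all genes. Cdk6 stood at 267 and 295 UPM in progenitors and 21.7 and 36.3 in precursors, and Cdk4 at 151 and 171 against 17.0 and 19.3. Ccnd3, the D-type cyclin required for granulocyte expansion, was kept, at 212 and 203 against 290 and 313. Of 10 genes of CDK inhibition and cycle exit, 4 were at least 2-fold higher in the precursors (Ccng2, Cdkn2d, Tob1 and Cdkn1a) and none lower, against 3.7% of all genes higher. Cdkn1a, the inhibitor p21, stood at 68.3 and 61.5 in progenitors, 138 and 138 in precursors and 31.9 and 30.1 in immature neutrophils. Of these 3 classes the progenitors and the precursors both divide, and the level was higher in the precursors than in either of the others. Cdkn2c (p18) had a like order, with 21.9 and 22.2, then 49.0 and 38.6, then 3.27 and 3.12, and its ratio over progenitors in HFD, 1.73, stayed under 2-fold. Cdkn2d (p19) stood at 81.9 and 96.6, then 245 and 201, then 171 and 154.

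Since the mitotic genes and the granule genes were each high together, promoter sequences were read for the motifs these groups are known for. Windows of 250 bases before the transcription start came from RefSeq (GRCm38.p6), and both strands were searched. The cell cycle homology region, searched as TTTGAA or TTCGAA, was in 20 of 47 G2M promoters matched (42.6%) and in 17.4% of all 27025 promoters. A CCAAT box, searched as CCAAT, was in 76.6% of the G2M promoters, 71% of 31 S phase promoters and 34.5% of all, and 57.4% of the G2M promoters against 10.4% of all had at least 2. The E2F motif, searched as TTTGGCGC or TTTCCCGC, was in 8 of 31 S phase promoters (25.8%) and 1.35% of all. The C/EBP motif, searched as TTGCNNAA, was in 5 of 14 specific granule promoters (35.7%), 4 of 11 gelatinase granule and secretory vesicle promoters (36.4%), 0 of 10 primary granule promoters and 9.55% of all. No motif contains another, but a C/EBP match and a CCAAT box can share bases, as they do in the Ltf window. A match describes letters and is not evidence of binding. The promoters of Ccnb2 (cyclin B2) and Top2a (topoisomerase II alpha, a rule gene) each held matches of the cell cycle homology region and the CCAAT box. Their windows are chr9:70421555-70421804 and chr11:99024190-99024439, both on the minus strand. Capitals mark the matches of these 2 motifs in either orientation.
Ccnb2: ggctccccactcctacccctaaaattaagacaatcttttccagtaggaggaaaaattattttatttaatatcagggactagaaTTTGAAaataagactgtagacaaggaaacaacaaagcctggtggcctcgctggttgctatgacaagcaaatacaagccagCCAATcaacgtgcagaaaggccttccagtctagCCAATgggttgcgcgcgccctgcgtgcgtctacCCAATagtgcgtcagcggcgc
Top2a: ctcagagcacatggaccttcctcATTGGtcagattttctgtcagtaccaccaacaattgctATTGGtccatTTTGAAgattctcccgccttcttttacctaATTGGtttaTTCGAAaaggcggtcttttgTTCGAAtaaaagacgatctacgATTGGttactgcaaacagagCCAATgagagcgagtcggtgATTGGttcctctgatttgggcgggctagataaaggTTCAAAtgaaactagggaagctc
The Top2a window holds 4 cell cycle homology matches and 6 CCAAT boxes, and the Ccnb2 window 1 and 3. In Ccnb2 the cell cycle homology match, at 167 bases before the start, lies farther out than the CCAAT boxes. Mcm6, a subunit of the replicative helicase, is shown for the S phase list (chr1:128359706-128359955, minus strand), with E2F matches in capitals at 110 and 47 bases before the start.
Mcm6: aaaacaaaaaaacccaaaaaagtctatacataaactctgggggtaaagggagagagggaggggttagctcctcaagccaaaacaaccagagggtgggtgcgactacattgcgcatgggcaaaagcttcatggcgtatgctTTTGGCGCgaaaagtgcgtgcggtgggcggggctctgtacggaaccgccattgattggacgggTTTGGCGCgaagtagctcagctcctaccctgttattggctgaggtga
For the specific granule genes Ngp (chr9:110419558-110419746) and Ltf (chr9:111019042-111019270), both on the plus strand, the bases up to the annotated gene are shown, with a C/EBP match in capitals at 138 and 75 bases before the RefSeq start. The Ngp window holds 2 such matches, and the other lies in the bases not shown.
Ngp: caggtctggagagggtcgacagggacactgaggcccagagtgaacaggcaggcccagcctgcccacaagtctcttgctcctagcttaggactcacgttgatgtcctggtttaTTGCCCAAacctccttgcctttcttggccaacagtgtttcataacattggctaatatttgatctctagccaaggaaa
Ltf: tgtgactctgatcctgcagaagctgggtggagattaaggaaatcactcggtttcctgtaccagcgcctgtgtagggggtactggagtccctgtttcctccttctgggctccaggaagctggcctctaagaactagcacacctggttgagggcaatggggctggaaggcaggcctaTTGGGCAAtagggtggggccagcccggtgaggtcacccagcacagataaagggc
Camp, Ngp and Ltf, which are high together, also lie near each other, between 109847379 and 111042767 on chromosome 9 (GRCm38), a span of 1.195 Mb.

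Single precursors spread over positions in the cycle. S phase genes as a share of S phase and G2M UMIs (Mki67 and Top2a left out) had a median of 14.5% in ND precursors, with quartiles of 10.1 and 23.0%, and 19.0% in HFD precursors, with quartiles of 10.5 and 34.1%. The progenitors stood at 38.9% and 38.6% and non-cycling immature neutrophils at 7.45% and 7.69%. The ranges of the libraries overlapped. G2M genes made up 10712 UPM in ND and 10554 in HFD precursors, above the 7202 and 6735 of the progenitors, and S phase genes 2238 and 2927, under the 3344 and 3417 of the progenitors. Across cells, the share of Ltf and Lcn2 and the S phase share had a Pearson correlation of 0.358 in ND and 0.215 in HFD (91 and 100 cells, each set from 1 library), and depth and the S phase share one of -0.0470 and -0.172.

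**Figure D2:**
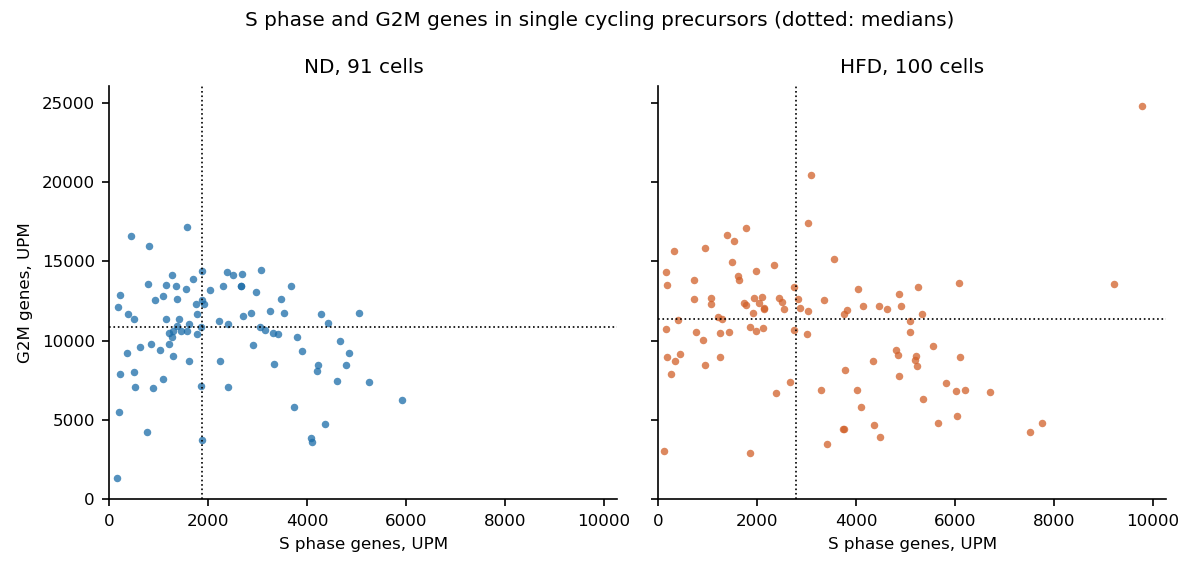
S phase genes against G2M genes in single precursors, both in UPM of the cell, for the 91 ND cells (left) and the 100 HFD cells (right), with dotted lines at the medians. Cells spread along the S phase axis from near 0, and 14 of the ND and 35 of the HFD cells lie beyond 4000 UPM of S phase genes, a value chosen after the cells were seen.

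Ordered by S phase share and cut into 3 groups of like size, precursors with more S phase RNA had more Fcnb, a rule gene, more Lyz2 and more RNA of ribosome biogenesis genes in both libraries. These were picked after the values were seen. From the lowest to the highest group, Fcnb went from 539 over 765 to 1126 UPM in ND and from 646 over 955 to 1206 in HFD. Lyz2 went from 6797 over 7813 to 9928 in ND and from 6197 over 7154 to 11384 in HFD. Ribosome biogenesis genes went from 371 over 554 to 724 and from 381 over 617 to 745. Ms4a3 went from 94.7 to 196 in ND and from 130 to 180 in HFD, with the middle group of HFD (128) no higher than the lowest. Camp went the other way, from 72687 over 69768 to 60475 and from 77383 over 64480 to 59145, and Cebpe ended lower, at 308 and 316 after 414 and 425. The primary granule list had no steady order, at 1949, 1821 and 2299 UPM in ND and 1551, 1458 and 2153 in HFD, and neither did Mpo or Chil3. Serpinb1a and Srgn were the most abundant genes of that list in the precursors. Srgn held 827 of 2016 UPM of the list in ND and 366 of 1709 in HFD, so the sum does not stand for Mpo, Elane or Prtn3. Elane, capped by the rule, stood at 16.0, 14.1 and 13.8 in ND and 9.78, 11.6 and 43.0 in HFD. Late genes were also highest in the top group of HFD, with Retnlg at 599, 386 and 1767 and Mmp8 at 8.69, 2.33 and 88.5. In ND they stood at 775, 166 and 620 for Retnlg and at 70.8, 12.9 and 15 for Mmp8, and 1 cell set the order for Retnlg: without it the lowest group stood at 380 for Retnlg, under the top group, and at 39.4 for Mmp8. Without the highest HFD cell the top group stood at 1279.5 for Retnlg and 66.2 for Mmp8. Ngp and Ltf had no steady order: Ltf stood at 8892, 9868 and 9164 in ND and at 8949, 10276 and 9644 in HFD. Ccnb2 went from 213 to 67.5 and from 224 to 32.0, which belongs to the ordering itself, as a G2M gene. Cut by the share of Ltf and Lcn2 instead, the highest group had fewer G2M UMIs than the lowest (10441 against 12087 UPM in ND, 9686 against 12583 in HFD). These G2M levels, unlike those above, include Mki67 and Top2a, which helped to choose the cells. The highest group also had more of the replication licensing and fork genes (1664 against 1046, and 2177 against 1583). Median depths of the groups lay between 24900.5 and 28617 UMIs, and groups of 30 to 34 cells from 1 library are a description.

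**Figure D3:**
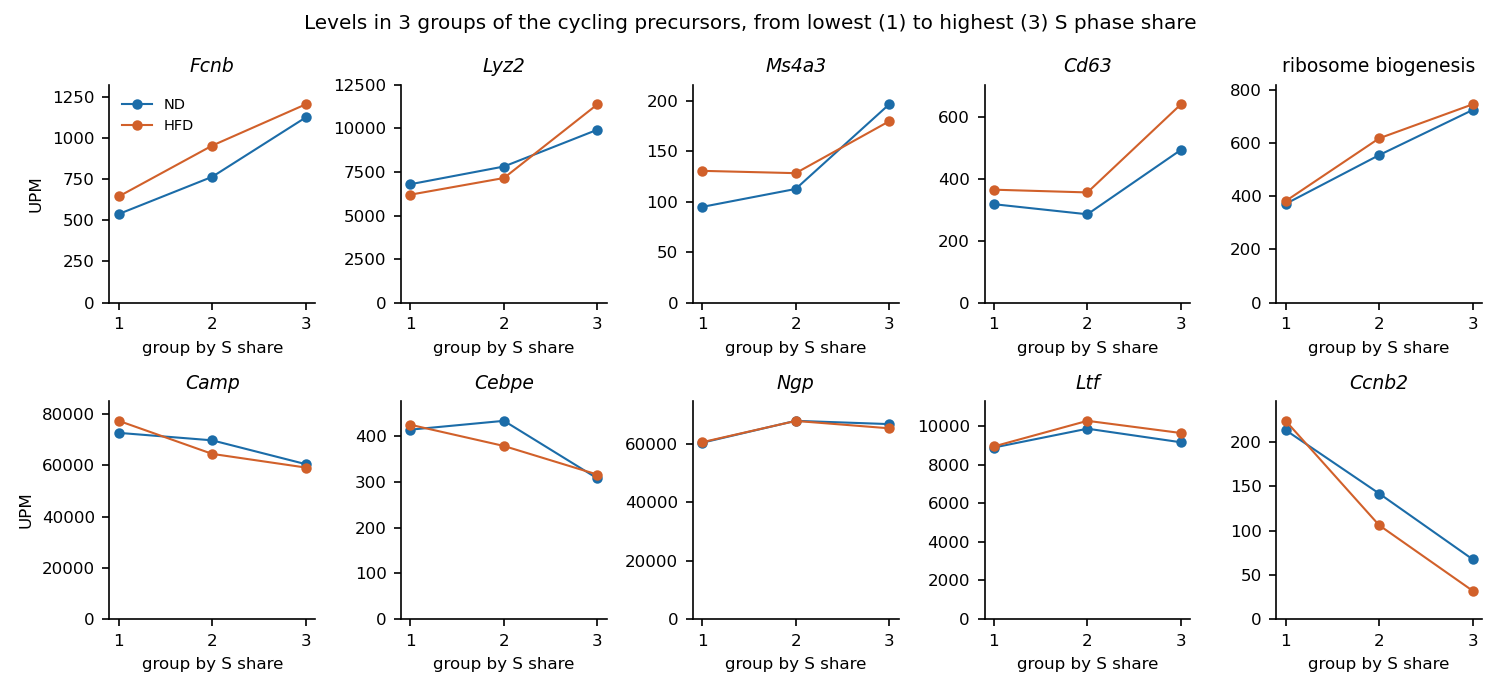
Levels in UPM in 3 groups of the precursors, from the lowest (1) to the highest (3) share of S phase genes, for ND (blue) and HFD (orange). Fcnb, Lyz2 and the ribosome biogenesis list step up and Camp and Ccnb2 step down in both libraries, while Ngp and Ltf have no steady order.

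Olfm4, which encodes olfactomedin-4, a granule protein known to mark a subset of mouse neutrophils, was present in few cells at a high level. It was found in 12 ND precursors (13.2%) and 16 HFD precursors (16%), and after thinning in 12.1% and 16.7%, against 0.343% and 0.635% of the B cell reference. Cells that had it had a median of 1848 and 1837 UPM. Non-cycling immature neutrophils had it in 11.2% and 13.3% of thinned cells and mature neutrophils in 5.32% and 6.45%. In progenitors the libraries differed, with 2.11% in ND and 16.9% in HFD.

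A few cells that met the rule carried late genes. Retnlg had a median of 98.1 UPM per cell in ND and 160 in HFD, yet the highest cell reached 27322 in ND and 31640 in HFD, a level like that of mature neutrophils. The ND cell lay at a limit of the rule, with exactly 3 UMIs of Mki67 and Top2a. Its G2M genes held 1323 UPM, under the 1976 of the non-cycling immature class. The HFD cell had the lowest granule share of the HFD precursors, 4.07%, yet lay above the limit of 1%. It had 16 UMIs of Mki67 and Top2a and 6895 UPM of G2M genes. Mmp8 was found in 19.8% of ND and 11% of HFD precursors, with 2180 and 1456 UPM in the highest cell, the same cells. Most markers of other cell types were low: B cell markers had a median of 2 UMIs per precursor in each library, erythroid markers 2, dendritic cell markers 0 and monocyte and macrophage markers 12 and 11. Megakaryocyte and platelet markers had the highest median, 15 in each library, and Cd9, which neutrophils also carried (890 and 942 UPM in the non-cycling immature class), gave 1446 of 1452 UMIs in ND and 1532 of 1551 in HFD, with Ppbp, Vwf and Treml1 at 0 in both. Standing apart were 3 ND and 2 HFD barcodes with at least 100 UMIs of another type's list. In ND they carried 224 stromal UMIs, 854 B cell with 633 dendritic and 119 monocyte UMIs, and 818 erythroid UMIs. Of the 854 B cell UMIs 851 were of Cd74, a gene of antigen presentation, so that little else of the B cell list was there. In HFD they carried 4297 erythroid UMIs and 150 UMIs of the endothelial and mural list. The most abundant genes of that list in the precursors were Acta2, Fabp4 and Myh11. Scrublet, a doublet caller, marked 0 precursors, but at its automatic threshold it marked only 0.149% of ND and 0.37% of HFD cells and cannot be taken to have worked.

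Between the diets the precursors were close in most genes. Of 2221 genes with at least 200 UMIs in the precursors, 31 (1.4%) were at least 1.5-fold higher in HFD and 61 (2.75%) at least 1.5-fold lower. With the median ratio subtracted the counts were 20 and 72, and as a mean over cells they were 94 and 62. With each cell thinned to 3000 UMIs they were 261 and 214, of which 15 and 53 were among the first 31 and 61. With fewer than 3 UMIs of Elane and Prtn3 allowed they were 22 and 50, of which 16 and 44 were among the first. The median gene with at least 20 UMIs stood at 0.04 (log2 of HFD over ND). None of 14 specific granule genes passed 1.5-fold, and their median was -0.01, but 4 of them (Chil3, Fcnb, Camp and Ngp) helped to choose the cells. Of the others, Ltf had a ratio of 0.05 and Lcn2 of -0.11. Of the rule genes, Camp stood at 67840 UPM in ND (67520 to 68162) and 67386 in HFD (67071 to 67703), and Ngp at 65005 and 64544. None of 37 G2M genes passed 1.5-fold either, with a median of -0.06, nor any of 81 ribosomal protein genes. Here the G2M list included Mki67 and Top2a, which helped to choose the cells.

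S phase genes were slightly higher in HFD. Their median was 0.47, and 38 of 41 genes with at least 20 UMIs were higher and 3 lower, beside 4101 higher and 3321 lower of all genes. Of 24 with at least 200 UMIs, 3 (Mcm6, Ccne2 and Tyms) were at least 1.5-fold higher and none lower, against 1.4% of all genes. Tyms (thymidylate synthase) stood at 102 UPM in ND (89.9 to 115) and 153 in HFD (139 to 169). Ccne2, the cyclin of entry into S phase, stood at 45.9 (37.9 to 55.0) and 75.2 (65.0 to 86.6), and Pcna, the replication clamp, at 174 (158 to 191) and 238 (220 to 258). Mcm6 stood at 39.9 and 64.4, but its ratio was -0.08 after thinning. Replication licensing and fork genes had a median of 0.37, with 30 of 33 higher, and nucleotide supply genes 0.35, with 11 of 14 higher. The same S phase list had a median of 0.03 in progenitors, 0.19 in non-cycling immature neutrophils and 0.12 in the B cell reference. Replication-dependent histone genes did not share the direction: their median was -0.22, with 26 of 33 lower. Per cell, S phase genes had a median of 1864 UPM in ND and 2784 in HFD, with quartiles of 1178 and 3276 against 1517 and 4824. These lists overlap in genes, and whether the difference exceeds that between mice could not be asked of 1 library per diet.

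Early response genes, which are switched on within minutes of a stimulus and include the AP-1 factors, were lower in HFD. Their median was -0.96, with 21 of 25 lower, and 11 of 17 with at least 200 UMIs were at least 1.5-fold lower (Btg2, Ier5, Jun, Zfp36, Jund, Klf2, Ier2, Junb, Fos, Klf6 and Dusp1) and none higher, against 2.75% of all genes. Jun had 1269 UPM in ND (1225 to 1314) and 274 in HFD (254 to 294), a log2 ratio of -2.21. Over single cells Jun had a median of 324 in ND and 86.4 in HFD, with 10th and 90th percentiles of 28.6 and 2732 against 0 and 708, so that the cells overlapped. Klf2, a factor that holds leukocytes quiescent, had 886 and 256, and Jund 566 and 191. The difference was not particular to the precursors as far as the medians go: the list stood at -0.93 in progenitors, -0.92 in non-cycling immature neutrophils and -0.47 in the B cell reference. Heat shock genes had a median of -0.44 in the precursors and -1.11 in progenitors, and Hspa1b rested on 1 cell for 48.0% of its ND and 87.8% of its HFD UMIs.

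**Figure D4:**
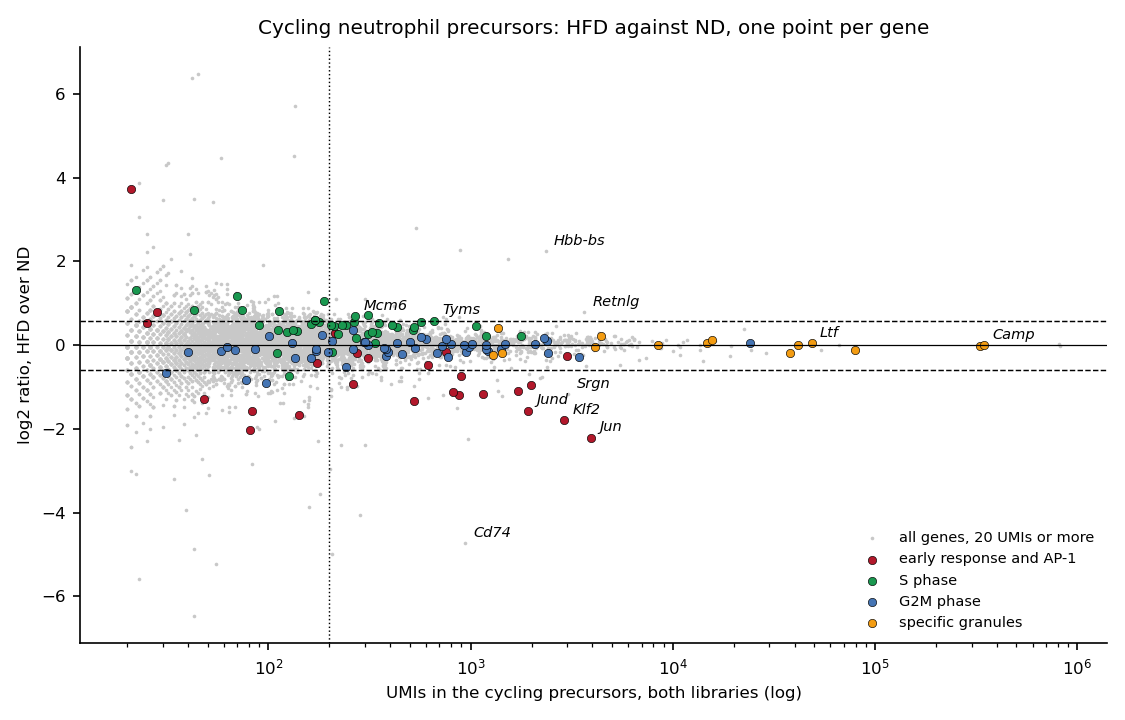
Log2 ratio of HFD over ND for every gene with at least 20 UMIs in the precursors, against its UMIs in both libraries (log axis), with dashed lines at 1.5-fold, a dotted line at 200 UMIs and 4 gene lists in colour. Specific granule genes lie on 0 at the right, S phase genes mostly above it, and early response genes reach down to Jun at -2.21.

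Srgn, the gene of serglycin, the proteoglycan that packs granule proteases, was lower in HFD precursors. It had 827 UPM in ND (791 to 863) and 366 in HFD (343 to 390), a log2 ratio of -1.18. Over single cells its median was 765 and 327, and no cell held more than 5.91% of its UMIs. The same ratio was -0.00 in non-cycling immature neutrophils, 0.16 in progenitors and -0.13 in the B cell reference, and cells with 1 or 2 UMIs of Mki67 and Top2a had 1655 UPM in ND and 1250.2 in HFD. The difference between classes was not tested. Of 23 genes of mature neutrophils, 22 were lower in HFD, beside 3321 lower and 4101 higher of all genes, with a median of -0.30, and 4 of 15 were at least 1.5-fold lower (Cxcr4, Il1b, Dusp1 and Trem1) and none higher, against 2.75% of all genes lower. Retnlg, a late gene of the gelatinase granule and secretory vesicle list, went the other way and was 1.72-fold higher in HFD (log2 ratio 0.78), while Slpi and Mmp9 of its list were at least 1.5-fold lower. The Retnlg ratio lay between 0.40 and 1.26 over the alternatives and under 1.5-fold in 3 of them (thinned cells, a mean over cells, and the highest 5% of doublet scores removed), and 1 cell held 26.7% of its ND and 1 cell 19.4% of its HFD UMIs. Il1b had 179 UMIs in 22 ND precursors and 23 UMIs in 15 HFD precursors, a log2 ratio of -2.97. That ratio was -1.65 in progenitors, 0.16 in non-cycling immature neutrophils and 0.17 in the B cell reference. The Il1b level of the precursors, 70.8 UPM in ND and 8.87 in HFD, lay under that of the reference, 106 and 120. Mature neutrophils, where Srgn and Il1b are abundant (7710 and 3314 UPM in ND), made up 65.3% of the ND and 57.5% of the HFD lineage cells. Their part in these ratios was not tested.

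Among the other genes past 1.5-fold, Slfn4, an interferon-induced gene, had 198 and 86.4 UPM, the 1 gene of the interferon list with 200 UMIs. Within that list, 6 of the 9 genes with at least 20 UMIs were lower in HFD and 3 were higher. The list median was -0.86, and it lay between -1.13 and -0.21 over the alternatives. Outside the list, the interferon-induced genes Ifi27 and Plscr1 went the other way. Ifi27 had 26.5 and 57.5 UPM, although its ratio turned to -0.21 after thinning, and Plscr1 had 130 and 209. Gadd45a, a growth arrest gene, had 340 and 190. Among lipid genes, Plin2, which coats lipid droplets, was lower in HFD, at 111 and 61.7, and Acadl, an enzyme of fatty acid oxidation, was higher, at 69.2 and 104. They were the 2 of 6 fatty acid genes past 1.5-fold, 1 in each direction, where 1.4% of all genes were higher and 2.75% lower. Of 18 fatty acid genes with at least 20 UMIs, 14 were higher and 4 lower, with a median of 0.26. All 13 genes of the mitochondrial genome were higher in HFD, beside 4101 higher and 3321 lower of all genes. Their median was 0.32 and the ratio of their summed level 0.19, and the median mitochondrial share of a cell was 0.414% in ND and 0.45% in HFD. Several of the ratios at the extremes rested on single barcodes. That of Il1b was -2.97 with and without its highest cells, but its level lay under that of the B cell reference in both libraries. Cd74, H2-Eb1 and H2-Aa, which present antigen, were 26.7-fold, 31.8-fold and 16.6-fold lower in HFD. They had 94.7 to 96.0% of their ND UMIs in the barcode with 633 dendritic UMIs. Cd74 gave 851 of the 854 B cell UMIs of that barcode, and H2-Aa and H2-Eb1 gave 255 and 193 of the dendritic ones. The hemoglobin genes Hbb-bt, Hba-a2, Hbb-bs and Hba-a1, the 4 highest ratios in HFD (2.05 to 2.79), rested on the HFD barcode with 4297 erythroid UMIs. Dcn (decorin, a stromal proteoglycan) had 88.5% of its ND UMIs in 1 barcode. With the 5 barcodes that carried another type's markers left out, 25 genes were higher and 53 lower, of which 22 and 52 were among those first counted.

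**Figure D5:**
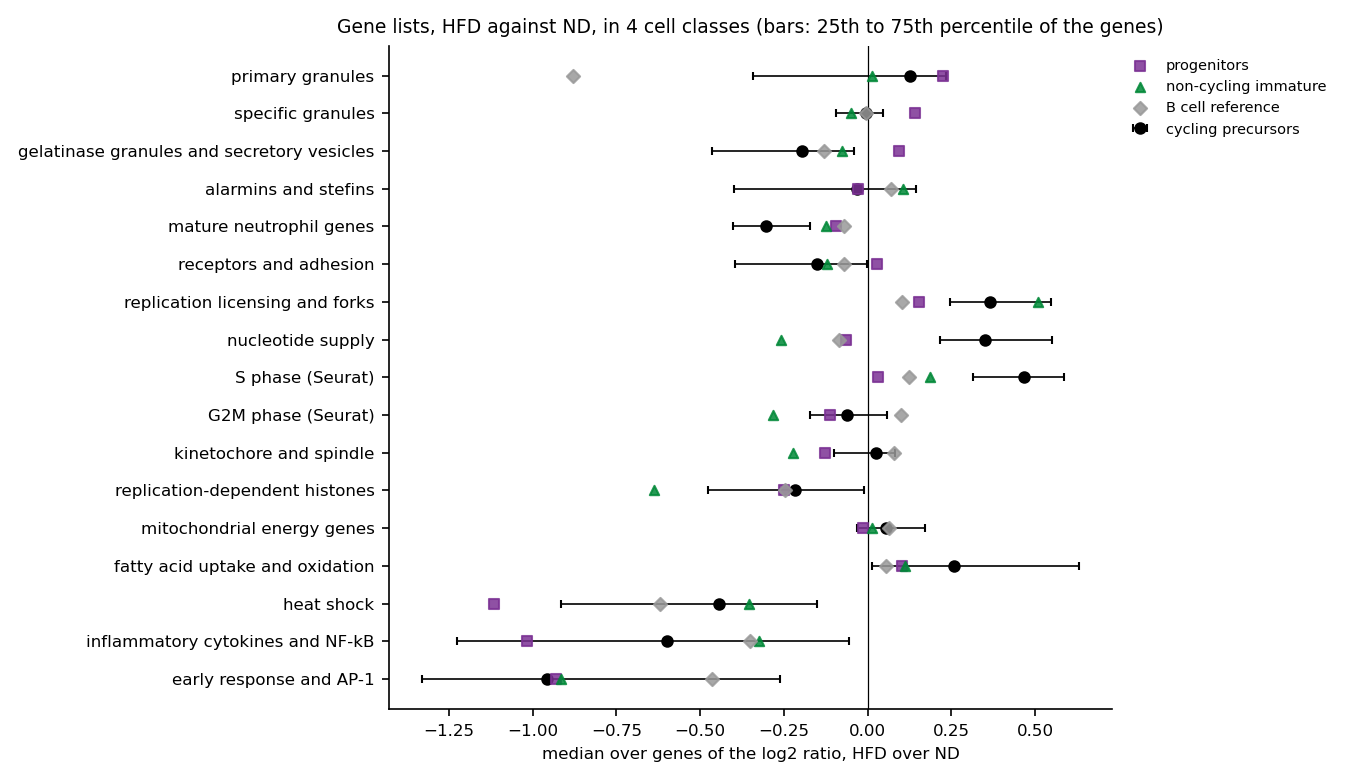
Median over genes of the log2 ratio of HFD over ND for 17 gene lists, with bars from the 25th to the 75th percentile of the genes for the cycling precursors (black circles) and medians alone for progenitors, non-cycling immature neutrophils and the B cell reference. S phase, replication and nucleotide genes lie to the right of 0 in the precursors, and early response genes lie between -0.96 and -0.92 in all 3 myeloid classes.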

How the data were processed

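RNA of single periosteal cells was sequenced in droplet libraries. Per the submitters' processing notes and the matrix headers, the authors made the deposited UMI counts with Cell Ranger 6.0.1 on the build mm10, with the mice of a diet in 1 matrix and no normalization, so that the values are whole counts of UMIs per gene and barcode. Barcodes were grouped by the diet in the labels. The paper's limits on detected genes and mitochondrial UMIs were applied here, and doublets were kept, since Scrublet (in scanpy 1.11.5) marked under 0.5% of cells. UMIs were summed over the cells of a class and library and given per 1000000 (UPM), and ratios are log2 with 0.5 added to each count. A gene was called at 1.5-fold between diets or 2-fold in both libraries between classes, with at least 200 UMIs. Genes with at least 20 UMIs entered the medians of 38 gene lists, 4 of whose 839 entries matched no symbol. S phase and G2M lists are those of Seurat. With 1 library per diet no test was run between diets, and none between classes, which measured RNA had chosen. Genes named were the rule genes, the most abundant (up to 5) and the called genes of each list, the 15 most abundant genes, and the 10 highest and 10 lowest ratios of each contrast, from among which those described were taken; a few others (Olfm4, Mmp8, Ccnd3, Cdkn2c and further list genes) were chosen after their values were seen. The members and the gene lists were chosen with earlier results of these data known. On simulated counts for HFD against ND (2165 genes), all 2-fold changes were called, and 0.0508% of unchanged genes. These counts were drawn with counting error alone. The simulation therefore could not measure false calls that come from differences between cells, barcodes or mice. Alternatives were other limits for cells, other floors, added counts, denominators and weights, thinning to 3000 UMIs, and removal of mixed barcodes or of the highest cell. Analyses used Python 3.11.15, numpy 2.4.6, scipy 1.17.1 and pandas 2.3.3.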

Additional observations from a re-analysis of the deposited data

Results flagged for a closer look

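Mt1, a metallothionein that binds zinc, had a log2 ratio of HFD over ND of 1.09 in the cycling precursors and of -1.15 in the non-cycling immature neutrophils, opposite directions under the same contrast. The difference was not tested. In the HFD precursors 1 cell held 50.5% of the Mt1 UMIs, and without the highest cell of each library the ratio was 0.30.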

How the results depend on the processing

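No paired analysis was possible because the labels number the mice of each diet alike but the matrices pool them, and for the same reason no replicate could be left out in turn. With 1 library per diet, depth limits counting error only. The shares of precursors lay between 1.26 and 1.65% of kept cells and between 3.54 and 4.59% of lineage cells over the 9 alternatives for cells. Counts of called genes followed the floor. Genes higher and lower in HFD numbered 31 and 61, then 278 and 253 with a floor of 50 UMIs, 2562 and 2708 with a floor of 1, and 261 and 214 with each cell thinned to 3000 UMIs; 20 were higher with the median subtracted and 94 as a mean over cells. Against immature neutrophils 738 genes were higher and 532 lower, then 1557 and 876 (floor of 50) and 3198 and 1626 (floor of 1). Against progenitors 166 were higher and 1018 lower, then 101 and 605 with the cycle limit as a rate, 520 and 3541 (floor of 1), and 363 and 638 with the median subtracted; 1934 were lower with a floor of 50. The median of the S phase list, 0.47, lay between 0.42 and 0.60, the last as a mean over cells, that of early response genes between -1.11 and -0.84, and those of the G2M list between -0.12 and 0.01. With fewer than 3 UMIs of Elane and Prtn3 allowed, the erythroid list turned to -1.86, Hba-a1 to -3.22, Hbb-bs to -2.13, Hba-a2 to -2.45, Hbb-bt to -1.59 and Dcn to 0.70. With the cycle limit as a rate, H2-Eb1 turned to 0.24, H2-Aa to 0.031 and Crip1 to 0.52. Alternatives added after the data were seen turned H2-Aa to 0.25, Dcn to 0.60 and Crip1 to 0.053 (highest 5% of doublet scores removed), to 0.27, 0.58 and 0.047 (mixed barcodes removed), and H2-Aa to 0.18 and Dcn to 0.58 (each gene without its highest cell). Thinning turned Ccr1 to 0.14, Arhgef6 to -0.16, Mcm6 to -0.077, Hnrnpr to -0.18 and Ifi27 to -0.21. The cause was not tested.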
